A study of Mus musculus with 6 samples.

Results

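The genes described here belong to the adrenergic, angiotensin and endothelin pathways of the heart. They are 9 genes chosen by name out of 54532 genes in the deposited table: the receptors Adrb1, Adra1a, Adra1b, Agtr1a, Ednra and Ednrb, the peptidase Ace, and the adenylyl cyclases Adcy5 and Adcy6. All 9 were found by symbol, each in 1 row. Messenger RNA was sequenced from mouse heart tissue in 6 libraries, 3 from Ythdc1-CKO mice (CKO), in which Ythdc1 was deleted conditionally, and 3 from mice carrying the Ythdc1flox/flox alleles (flox control). Ythdc1 encodes a nuclear reader of the messenger RNA modification N6-methyladenosine. The labels give 15 days on normal chow for both groups and call the samples of a group independent biological replicates. They name neither the Cre driver, the cells in which it acts, the age, nor the sex. HKO in the series text and CKO in the sample labels were taken to be 1 genotype. The comparison asks which transcripts differ in the heart when Ythdc1 is deleted.

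These pathways carry signals from nerves and hormones to the heart. Noradrenaline and adrenaline act on beta receptors, which stimulate adenylyl cyclase through the Gs protein to make cAMP and activate protein kinase A, and on alpha-1 receptors, which act through Gq on phospholipase C. Angiotensin-converting enzyme, the product of Ace, makes angiotensin II, whose main receptor Agtr1a also signals through Gq. Endothelin peptides act on the receptors Ednra, found on muscle cells, and Ednrb, found largely on endothelium.

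Reads recovered from the deposited FPKM (fragments scaled by gene length and by library size) totalled 17434296 to 19360428 in CKO libraries and 17748541 to 19011019 in flox controls. Ythdc1 itself measured 2.39, 2.57 and 2.34 FPKM in CKO hearts 1, 2 and 3, against 4.31, 3.64 and 4.10 FPKM in flox controls 1, 2 and 3, and fell (log2 fold change -0.54, SE 0.09, limma adjusted p = 0.0150). That call was lost without CKO 3 (adjusted p = 0.0535), flox control 1 (0.0707) or flox control 3 (0.0637). Libraries correlated at 0.955 to 0.977 (Pearson's r of log2(FPKM + 1)) among CKO hearts, 0.978 to 0.984 among flox controls and 0.940 to 0.953 between the groups. Xist, which only cells with an inactive X chromosome transcribe, gave 4037 reads in CKO 3 and 0 to 5 in the other libraries, so sex and genotype are not balanced. The 8 cardiomyocyte markers summed to 8155 to 11520 FPKM in CKO hearts and 10178 to 11250 FPKM in flox controls, and none of the 8 passed the test. Of the 8, only Actn2 had a positive log2 fold change (0.23, limma adjusted p = 0.562). The others were negative, from -0.03 for Myom1 (limma adjusted p = 0.937) to -0.72 for Ryr2 (0.0543). In bulk heart tissue, fewer cells of a type and less RNA per cell cannot be told apart.

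Ace rose and Adra1b fell in CKO hearts, Adra1a was almost undetected there, and the other 6 genes did not pass the test. Of the 9 members, 8 reached a mean of 1 FPKM over the 6 libraries and were tested on log2(FPKM + 1) with limma among 12144 genes, with adjusted p under 0.05 as the threshold. Of these 8, 1 was called higher and 1 lower, or 25% of those tested, beside 11.2% of all genes tested. In single directions, 5.69% of all genes were called higher and 5.49% lower. The groups did not overlap in 3 of the 8 tested members (Ace, Adra1b and Agtr1a), beside 34.3% of all genes tested. The median log2 fold change of the 8 was -0.10, beside 0.01 over all genes tested.

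The sequences before the transcription starts of Ace and Adra1b are shown because these 2 members passed the test. RefSeq entries matched 6 of the 9 members, and Adra1a, Agtr1a and Adcy6 had no match in the table used. The sequences come from RefSeq (GRCm38.p6), read 5′ to 3′ on the strand of the gene, and cover the 250 bases before a start. Capitals mark matches, on either strand, to the GC box (GGGCGG), the TATA box (TATAAA), the cAMP response element (TGACGTCA) or the E-box (CACGTG). Ace lies on chr11:105967945-105989964, plus strand, and the window before its outer start is chr11:105967698-105967947. RefSeq starts need not coincide with the deposited gene bounds. This window ends just inside the bounds of Ace, and the outer Adra1b window leaves a gap to those of Adra1b.
Ace, outer start: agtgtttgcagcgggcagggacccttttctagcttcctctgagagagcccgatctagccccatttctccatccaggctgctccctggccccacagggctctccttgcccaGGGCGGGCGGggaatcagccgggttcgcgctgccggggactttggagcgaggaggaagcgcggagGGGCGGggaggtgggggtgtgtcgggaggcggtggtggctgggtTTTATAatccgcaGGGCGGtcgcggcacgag
Adra1b lies on chr11:43774606-43901210, minus strand, and has 2 RefSeq starts, with windows at chr11:43901238-43901487 and chr11:43836490-43836739.
Adra1b, outer start: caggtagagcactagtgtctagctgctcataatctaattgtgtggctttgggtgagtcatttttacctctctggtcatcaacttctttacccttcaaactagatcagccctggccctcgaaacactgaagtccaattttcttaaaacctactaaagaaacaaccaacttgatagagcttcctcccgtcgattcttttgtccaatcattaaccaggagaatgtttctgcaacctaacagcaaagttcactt
Adra1b, inner start: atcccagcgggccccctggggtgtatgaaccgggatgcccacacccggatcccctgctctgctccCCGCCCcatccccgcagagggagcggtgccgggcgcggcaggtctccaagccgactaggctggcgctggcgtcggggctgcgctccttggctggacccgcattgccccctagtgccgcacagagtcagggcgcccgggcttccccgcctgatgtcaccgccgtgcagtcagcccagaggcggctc
The outer Ace window held 4 GC boxes, 2 of them overlapping, and 1 TATA box on the opposite strand, and 67.2% of its bases were G or C. A second RefSeq start of Ace, inside the gene, has its window at chr11:105974939-105975188, which held none of the 4 motifs and 58.0% G or C and is not printed. The inner Adra1b window held 1 GC box and 72.8% G or C, while the outer window held none of the 4 motifs and 41.6% G or C. Among all 32851 RefSeq start windows of this length, 32.7% held a GC box, 12.4% a TATA box, 1.55% a cAMP response element and 6.02% an E-box. These matches describe letters in a window and not binding sites.

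Among the receptors for catecholamines, Adrb1, the main beta receptor of cardiac muscle, did not pass the test. It measured 8.23, 8.77 and 9.26 FPKM in CKO hearts 1, 2 and 3, against 9.57, 6.40 and 14.1 FPKM in flox controls 1, 2 and 3. The CKO values lay inside the range of the controls, which spread widely (coefficient of variation 5.87% in CKO hearts and 38.8% in flox controls). The log2 fold change was -0.12 (95% interval -0.70 to 0.46, limma adjusted p = 0.798), an interval that includes changes in both directions. The control values ran in the same order as the summed atrial myocyte markers (Myl7, Myl4 and Sln), which were 47.1, 29.9 and 42.8 FPKM in CKO hearts 1, 2 and 3, and 200, 69.1 and 295 FPKM in flox controls 1, 2 and 3. The CKO values of Adrb1 did not run in the order of these sums. Among the members, only Adrb1 and Adra1b had control values in that order. With so few controls, such a match of order can arise by chance. The part of atrial tissue in the spread of Adrb1 was not tested.

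Adra1b, an alpha-1 adrenergic receptor that couples to Gq, fell in CKO hearts. It measured 12.1, 8.92 and 8.71 FPKM in CKO hearts 1, 2 and 3, against 19.4, 17.1 and 20.4 FPKM in flox controls 1, 2 and 3. The groups were apart, with CKO 1 the highest of the CKO hearts. Adra1b averaged 9.92 ± 1.92 FPKM in CKO hearts and 19.0 ± 1.69 FPKM in flox controls (SD, n = 3 each), a ratio of 0.523. The log2 fold change was -0.88 (SE 0.14, 95% interval -1.22 to -0.54, limma adjusted p = 0.0147). Leaving out flox control 1 (limma adjusted p = 0.0655) or flox control 3 (0.0596) ended the call. It held without each of the other 4 libraries, but narrowly without CKO 2 (0.0473) or CKO 3 (0.0495). The controls ran in the order of the atrial marker sums above, which were lower in every CKO heart, with 1 of the 3 markers (Sln) called lower and that call lost without CKO 2, CKO 3, flox control 1 or flox control 3. Within the CKO hearts Adra1b did not follow the order of those sums. The part of atrial tissue in the fall of Adra1b was not tested.

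Adra1a, the other alpha-1 receptor among the members, was scarce in all libraries and almost absent from CKO hearts. The 8728 bases of its exons drew 4, 0 and 0 reads in CKO hearts 1, 2 and 3, against 42, 36 and 31 reads in flox controls 1, 2 and 3. In FPKM these were 0.0255, 0 and 0 in CKO hearts, against 0.285, 0.235 and 0.178 in flox controls, so the groups did not overlap. A count of 0 allows up to 3 reads, or 0.0177 FPKM in CKO 2 and 0.0190 FPKM in CKO 3. Summed over libraries, 4 of 54666945 reads in CKO hearts and 109 of 54715637 reads in flox controls came from Adra1a, a ratio of 0.0367 with an exact 95% interval of 0.00983 to 0.0968 that covers counting error only. The gene was below the level required for the test. With no filter on low values its limma adjusted p was 0.0281, where 2.95% of 27031 genes were called, but the fit compares control values with libraries at or near 0 and is not independent of the low reads.

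**Figure D1:**
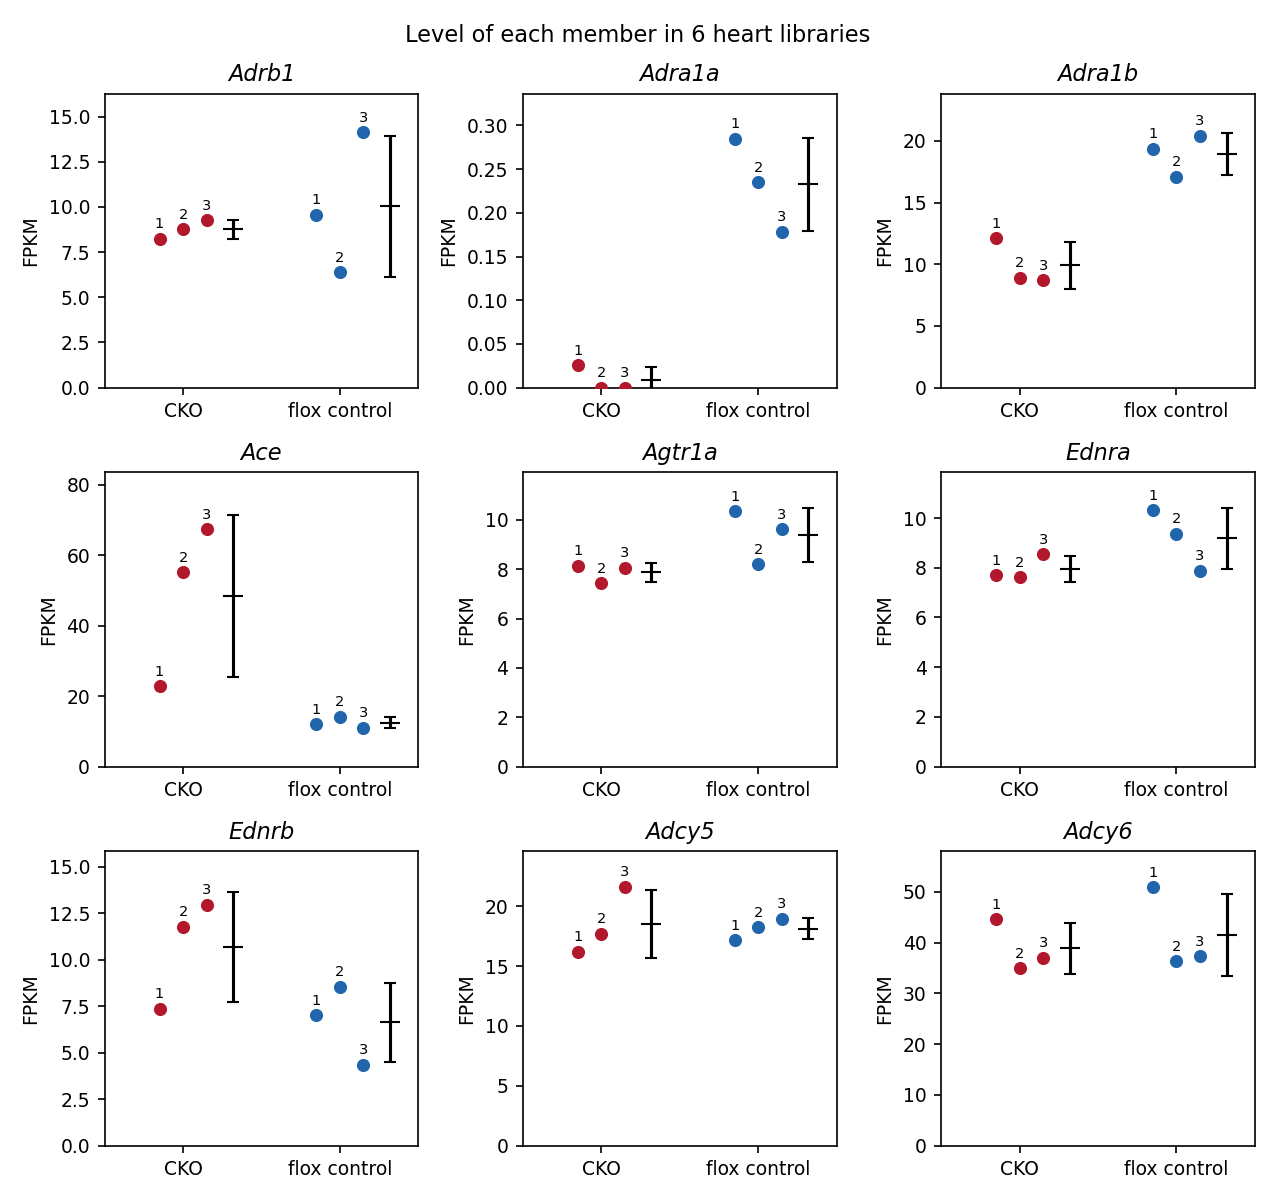
Level of each of the 9 genes in FPKM (vertical axes, from 0, with a scale of their own) in the 3 CKO and 3 flox control libraries, numbered by replicate, with the mean and SD beside them as a bar. Ace lay above and Adra1b and Adra1a below every control in all 3 CKO hearts, and CKO 1 was the CKO library nearest to the controls for Ace and Adra1b.

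Ace, the endothelial peptidase that makes angiotensin II and breaks down bradykinin, rose in CKO hearts. It measured 22.8, 55.3 and 67.3 FPKM in CKO hearts 1, 2 and 3, against 12.1, 14.1 and 11.0 FPKM in flox controls 1, 2 and 3, from 1080 to 6452 reads per library. The groups were apart, but CKO 1 stood well below the other CKO hearts. Ace averaged 48.5 ± 23.1 FPKM in CKO hearts and 12.4 ± 1.57 FPKM in flox controls (SD, n = 3 each), a ratio of 3.90. The log2 fold change was 1.75 (SE 0.38, 95% interval 0.85 to 2.65, limma adjusted p = 0.0331), higher than that of 99.5% of all genes tested. The call was lost without CKO 2 (adjusted p = 0.0947), CKO 3 (0.0798), flox control 1 (0.113), flox control 2 (0.0840) or flox control 3 (0.104), and without CKO 1 the log2 fold change was 2.22 (adjusted p = 0.00244). It was also lost with no filter on low values (0.0799).

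None of the 6 markers of endothelial cells, a main site of Ace, was called higher. The 6 endothelial markers summed to 193, 259 and 213 FPKM in CKO hearts 1, 2 and 3, against 263, 263 and 263 FPKM in flox controls 1, 2 and 3, and 1 of them (Tie1) was called lower, a call lost without any 1 of the 6 libraries (adjusted p 0.0542 to 0.119), while 5 did not pass. Pericyte and smooth muscle markers summed to 372 to 531 FPKM in CKO hearts and 405 to 768 FPKM in flox controls, with none of the 7 tested called. Fibroblast markers summed to 437, 535 and 393 FPKM in CKO hearts 1, 2 and 3, against 295, 310 and 402 FPKM in flox controls 1, 2 and 3, with 1 of 6 (Tcf21) called higher, a call lost without CKO 3, flox control 1 or flox control 2 (adjusted p up to 0.0633). Macrophage markers were highest in CKO 1, at 351 FPKM, against 74.4 to 169 FPKM in the other 5 libraries. That library had the lowest Ace of the CKO hearts. The part of these cells in the difference was not tested. An antisense gene, Gm11651, covers 5.58% of the exonic bases of Ace, and its reads cannot be told apart without strand.

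Agtr1a, the main receptor of angiotensin II, was slightly lower in each CKO heart without passing the test. It measured 8.14, 7.43 and 8.06 FPKM in CKO hearts 1, 2 and 3, against 10.4, 8.22 and 9.63 FPKM in flox controls 1, 2 and 3. The groups did not overlap, though CKO 1 and flox control 2 were close. The log2 fold change was -0.22 (SE 0.10, 95% interval -0.47 to 0.02, limma adjusted p = 0.212). The interval allows a level down to 0.723 times that of the controls, on the FPKM + 1 scale.

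The endothelin receptors differed in opposite directions, neither past the threshold. Ednra, which mediates contraction of vascular muscle, measured 7.69, 7.63 and 8.56 FPKM in CKO hearts 1, 2 and 3, against 10.3, 9.37 and 7.88 FPKM in flox controls 1, 2 and 3. Flox control 3 lay among the CKO values, and the log2 fold change was -0.18 (95% interval -0.45 to 0.09, limma adjusted p = 0.350). Ednrb, which on endothelium releases nitric oxide and clears endothelin, measured 7.36, 11.8 and 13.0 FPKM in CKO hearts 1, 2 and 3, against 7.002, 8.56 and 4.35 FPKM in flox controls 1, 2 and 3. CKO 1 lay within the control range and the other CKO hearts above it. The log2 fold change was 0.62 (SE 0.27, 95% interval -0.02 to 1.26, limma adjusted p = 0.194), which allows up to 2.40 times the control level on the FPKM + 1 scale.

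Within each library the balance of the endothelin receptors was lower in CKO hearts. Ednra stood at 1.05, 0.648 and 0.660 times Ednrb in CKO hearts 1, 2 and 3, against 1.47, 1.10 and 1.81 times in flox controls 1, 2 and 3, in FPKM. Ednrb therefore exceeded Ednra in CKO 2 and CKO 3 and in no control. The mean log2 ratio was -0.39 ± 0.39 in CKO hearts and 0.52 ± 0.36 in flox controls (SD, n = 3 each), a difference of -0.90. With 3 libraries a group, the exact permutation test (two-sided, p = 0.1) was at its lowest possible value and cannot pass 0.05. This ratio does not depend on the scaling between libraries.

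Adcy5 and Adcy6, the main cyclases of the heart muscle cell that beta receptors stimulate and Gi inhibits, showed no detectable difference. Adcy5 measured 16.2, 17.7 and 21.6 FPKM in CKO hearts 1, 2 and 3, against 17.2, 18.2 and 18.9 FPKM in flox controls 1, 2 and 3. Adcy6 measured 44.6, 34.9 and 37.0 FPKM in CKO hearts 1, 2 and 3, against 50.9, 36.4 and 37.3 FPKM in flox controls 1, 2 and 3. The groups overlapped for both genes, and flox control 1 was the highest library for Adcy6. The log2 fold change of Adcy5 was 0.02 (95% interval -0.27 to 0.31, limma adjusted p = 0.934) and that of Adcy6 was -0.08 (-0.47 to 0.31, adjusted p = 0.785). On the FPKM + 1 scale the intervals reach from 0.831 to 1.24 times the control level for Adcy5 and from 0.720 to 1.24 times for Adcy6. Adcy6 exceeded Adcy5 in every library, and the ratio of Adcy5 to Adcy6 was 0.363, 0.506 and 0.584 in CKO hearts 1, 2 and 3, against 0.337, 0.501 and 0.508 in flox controls 1, 2 and 3 (exact two-sided permutation test of the log2 ratio, p = 0.6).

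**Figure D2:**
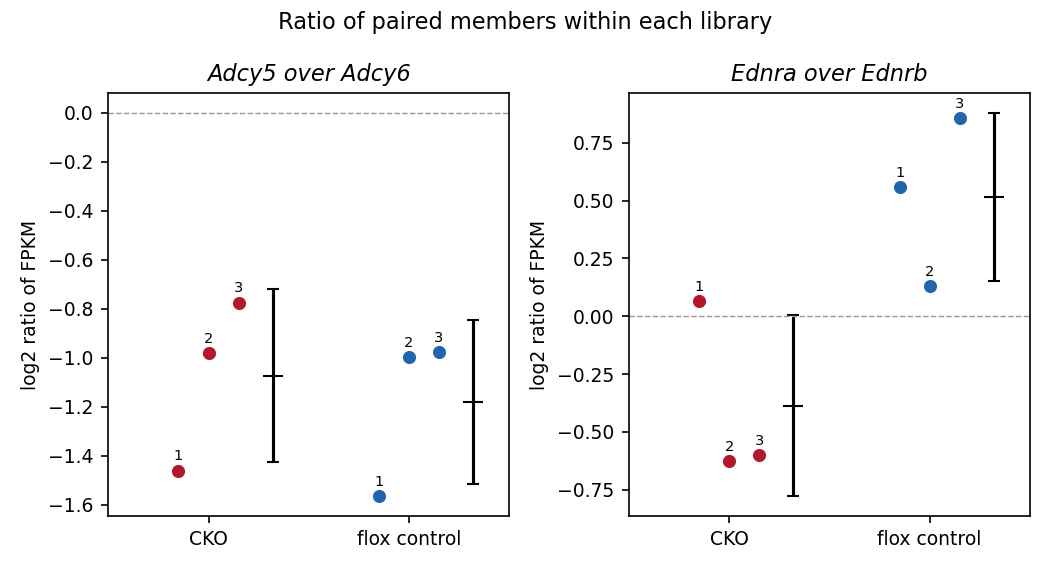
Log2 ratio of FPKM (vertical axes) of Adcy5 over Adcy6, left, and Ednra over Ednrb, right, in the 3 CKO and 3 flox control libraries, numbered by replicate, with mean and SD as bars and a dashed line where both genes are equal. The cyclase ratio overlapped between the groups, while the endothelin receptor ratio was lower in each CKO library than in each control.

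The order of the members by level differed between the groups. In CKO hearts Ace led (48.5 FPKM), overlapping Adcy6 (38.9 FPKM), followed by Adcy5 (18.5 FPKM). Ednrb, Adra1b, Adrb1, Ednra and Agtr1a followed between 10.7 and 7.88 FPKM, each overlapping the next. In flox controls Adcy6 led (41.5 FPKM) without overlap, followed by Adra1b (19.0 FPKM) and Adcy5 (18.1 FPKM), which overlapped each other. Ace followed in the controls (12.4 FPKM) and overlapped Adrb1, and Adra1a was last in both groups. CKO 1 was the CKO library closest to the controls in Ace, Adra1b and Ednrb. Its Ythdc1 level lay between those of the other CKO hearts, and a link of these levels to Ythdc1 was not tested.

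**Figure D3:**
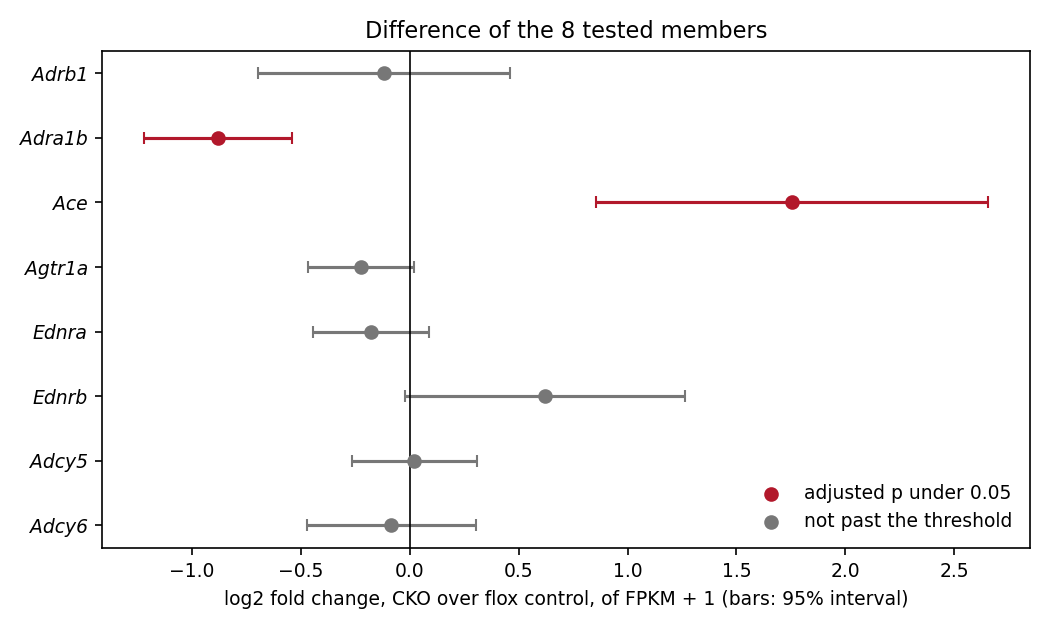
Log2 fold change of FPKM + 1, CKO over flox control (horizontal axis), of the 8 members tested, with 95% intervals from limma on 3 libraries per group. Ace (1.75) and Adra1b (-0.88) passed the threshold, and the intervals of the other 6 include 0.

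For the called members, the tested genes with the most similar levels over the 6 libraries were found by Pearson's r of log2(FPKM + 1). They were the antisense RNA gene Gm13111 (0.999) and Stxbp6 (0.999) for Adra1b, and Rnf126 (0.998) and Gdf6 (0.997) for Ace. Gdf6, a growth factor gene of the BMP family, measured 2.02, 10.9 and 12.6 FPKM in CKO hearts 1, 2 and 3, against 0.402, 0.403 and 0.227 FPKM in flox controls 1, 2 and 3, and so was also lowest in CKO 1 among the CKO hearts. Rnf126, a ubiquitin ligase gene, ranged less, from 19.1 to 24.8 FPKM in CKO hearts and from 16.5 to 17.4 FPKM in flox controls. With 12144 genes and 6 libraries that share a group difference, such high values describe the pattern and carry no test.

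Other genes of the same pathways were taken from 12 lists of 144 genes, of which 109 reached the level for the test. Of these 109, 9 rose and 9 fell, or 16.5% of those tested, beside 11.2% of all genes tested. After scaling every library to the same FPKM sum, 10 were called higher and 6 lower. The median log2 fold change was -0.02, beside 0.01 over all genes. Of the 9 that fell, Dbh, Nr3c2 and Ppp1r1a averaged under 1 FPKM in CKO hearts. They reached the level for the test only through the flox controls. Of the 18 called genes, 5 were called in all 6 fits that leave out 1 library (Adcy7, Rgs6, Prkar1a, Prkcd and Rcan1), and the other 13 lost their call in at least 1. Genes called numbered 20, 8 and 9 of the 109 without CKO 1, 2 and 3, and 5, 9 and 7 without flox control 1, 2 and 3.

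On the ligand side, Edn1, which encodes the precursor of endothelin-1, rose. It averaged 10.2 ± 3.56 FPKM in CKO hearts and 3.53 ± 0.141 FPKM in flox controls (SD, n = 3 each, log2 fold change 1.26, limma adjusted p = 0.0168), and the call was lost without any 1 of the 3 flox controls (adjusted p up to 0.0711). Of the 5 genes for endothelin ligands and converting enzymes, 2 were tested and 1 of them rose. Among 9 genes for making, taking up and breaking down catecholamines, 5 were tested, 2 fell and 3 did not pass. Dbh, whose enzyme makes noradrenaline, averaged 0.747 ± 0.491 FPKM in CKO hearts and 3.33 ± 0.920 FPKM in flox controls (limma adjusted p = 0.0212). Maob, which encodes a monoamine oxidase, averaged 1.60 ± 0.967 FPKM in CKO hearts and 5.02 ± 0.583 FPKM in flox controls (adjusted p = 0.0258). Without CKO 2, CKO 3, flox control 1 or flox control 3 the calls of Dbh (adjusted p up to 0.0874) and Maob (up to 0.0962) were lost, and that of Maob also without flox control 2. Dbh measured 3.52, 2.33 and 4.14 FPKM in flox controls 1, 2 and 3, in the order of the atrial marker sums given above. Maob measured 5.13, 4.39 and 5.54 FPKM in flox controls 1, 2 and 3, in the same order. In CKO hearts Dbh followed the order of those sums and Maob did not. A part of atrial tissue was not tested. Th, which encodes the first enzyme of catecholamine synthesis, was listed at 0 in all 6 libraries.

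Of 6 other adrenergic receptor genes, 2 were tested, and Adra1d, the third alpha-1 receptor, fell. Adra1d averaged 1.22 ± 0.254 FPKM in CKO hearts and 3.04 ± 1.03 FPKM in flox controls (SD, n = 3 each, log2 fold change -0.84, limma adjusted p = 0.0454), and was called in 1 of the 6 fits that leave out a library, that without flox control 2 (adjusted p = 0.0348, up to 0.143 in the other 5). Adra1d measured 3.05, 2.01 and 4.07 FPKM in flox controls 1, 2 and 3, again in the order of the atrial marker sums. Its CKO values did not run in that order, and a part of atrial tissue was not tested. Among 16 further renin-angiotensin genes, 7 were tested, 1 fell and 6 did not pass. Nr3c2, which encodes the mineralocorticoid receptor for aldosterone, averaged 0.697 ± 0.272 FPKM in CKO hearts and 2.63 ± 0.486 FPKM in flox controls (adjusted p = 0.0124), and lost its call without flox control 1 or 3 (adjusted p up to 0.0598). Agt, the precursor of angiotensin, did not pass, and Ren1 did not reach the level for the test.

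Between receptor and cAMP, 1 of 12 G protein subunit genes and 1 of 4 other cyclase genes rose. Gna13, which encodes a G protein alpha subunit, averaged 9.21 ± 0.759 FPKM in CKO hearts and 6.75 ± 0.560 FPKM in flox controls (limma adjusted p = 0.0450), and lost its call without any 1 of the 6 libraries (adjusted p 0.0606 to 0.145). Adcy7, a cyclase abundant in blood-derived cells, averaged 8.26 ± 0.798 FPKM in CKO hearts and 4.47 ± 0.621 FPKM in flox controls (log2 fold change 0.76, adjusted p = 0.0131). Of 11 receptor kinase, arrestin and RGS genes tested, 2 rose, 2 fell and 7 did not pass. Rgs6, which speeds the shut-off of Gi signals, averaged 1.06 ± 0.142 FPKM in CKO hearts and 3.07 ± 0.456 FPKM in flox controls (log2 fold change -0.98, adjusted p = 0.00762). Rgs6 measured 3.22, 2.56 and 3.44 FPKM in flox controls 1, 2 and 3, in the order of the atrial marker sums given above. The CKO values of Rgs6 did not run in that order. A part of atrial tissue in the difference of Rgs6 was not tested. Of the receptor kinase genes, 1 rose and 1 fell. Grk3 averaged 5.38 ± 0.857 FPKM in CKO hearts and 2.78 ± 0.386 FPKM in flox controls (adjusted p = 0.0189), and Grk6 7.44 ± 0.306 FPKM in CKO hearts and 10.2 ± 0.621 FPKM in flox controls (adjusted p = 0.0278). Arrb1, a beta-arrestin gene outside the naming rule and named after its values were seen, was the other called gene (log2 fold change 0.59, adjusted p = 0.0320). Grk3, Grk6 and Arrb1 were called in 2, 1 and 2 of the 6 fits that leave out a library, with adjusted p up to 0.0785 for Grk3, 0.0985 for Grk6 and 0.117 for Arrb1. All 3 lost the call without CKO 3, flox control 1 or flox control 2, Grk3 and Grk6 also without CKO 2, and Grk6 and Arrb1 also without flox control 3.

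Downstream of cAMP, 2 of 18 effector and anchoring genes rose and 16 did not pass. Prkar1a, which encodes a regulatory subunit that holds protein kinase A inactive until cAMP binds, averaged 275 ± 35.1 FPKM in CKO hearts and 117 ± 8.57 FPKM in flox controls (SD, n = 3 each, log2 fold change 1.22, limma adjusted p = 0.00624). The catalytic subunit gene Prkaca did not pass (136 ± 11.2 FPKM in CKO hearts and 146 ± 12.6 FPKM in flox controls, adjusted p = 0.649), a gene named after its value was seen. Popdc3, a cAMP-binding Popeye gene, averaged 18.2 ± 3.53 FPKM in CKO hearts and 8.52 ± 1.90 FPKM in flox controls (adjusted p = 0.0210), and lost its call without CKO 2, CKO 3, flox control 1 or flox control 3 (adjusted p up to 0.0870). Of 12 phosphodiesterase genes, 1 fell: Pde4c averaged 1.57 ± 0.334 FPKM in CKO hearts and 3.27 ± 0.598 FPKM in flox controls (adjusted p = 0.0281), a call lost without CKO 2, flox control 1 or flox control 2 (adjusted p up to 0.108). Of 8 genes for cardiac proteins that protein kinase A phosphorylates (median log2 fold change -0.61), 2 fell and 6 did not pass. Those were Tnni3, the cardiac troponin I gene (823 ± 85.9 FPKM in CKO hearts and 1357 ± 37.4 FPKM in flox controls, adjusted p = 0.0314), and Ppp1r1a, which encodes an inhibitor of protein phosphatase 1 (0.919 ± 0.394 FPKM in CKO hearts and 2.26 ± 0.408 FPKM in flox controls, adjusted p = 0.0442). Each was called in 1 of the 6 fits that leave out a library, Tnni3 in that without CKO 3 (adjusted p up to 0.125 in the other 5) and Ppp1r1a in that without CKO 1 (up to 0.136).

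On the Gq side, 1 of 12 phospholipase C, IP3 receptor and protein kinase C genes rose, and 1 of 16 calcineurin, NFAT, CaMKII and HDAC genes rose. Prkcd, which encodes protein kinase C delta, averaged 8.88 ± 0.925 FPKM in CKO hearts and 3.58 ± 0.234 FPKM in flox controls (SD, n = 3 each, log2 fold change 1.11, limma adjusted p = 0.00413). Rcan1, a calcineurin regulator that is itself a calcineurin target, averaged 56.2 ± 7.40 FPKM in CKO hearts and 24.7 ± 1.24 FPKM in flox controls (log2 fold change 1.15, adjusted p = 0.00580). Both kept their calls without each library in turn, with adjusted p up to 0.0270 and 0.0325. None of the other 26 genes of these 2 lists passed.

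**Figure D4:**
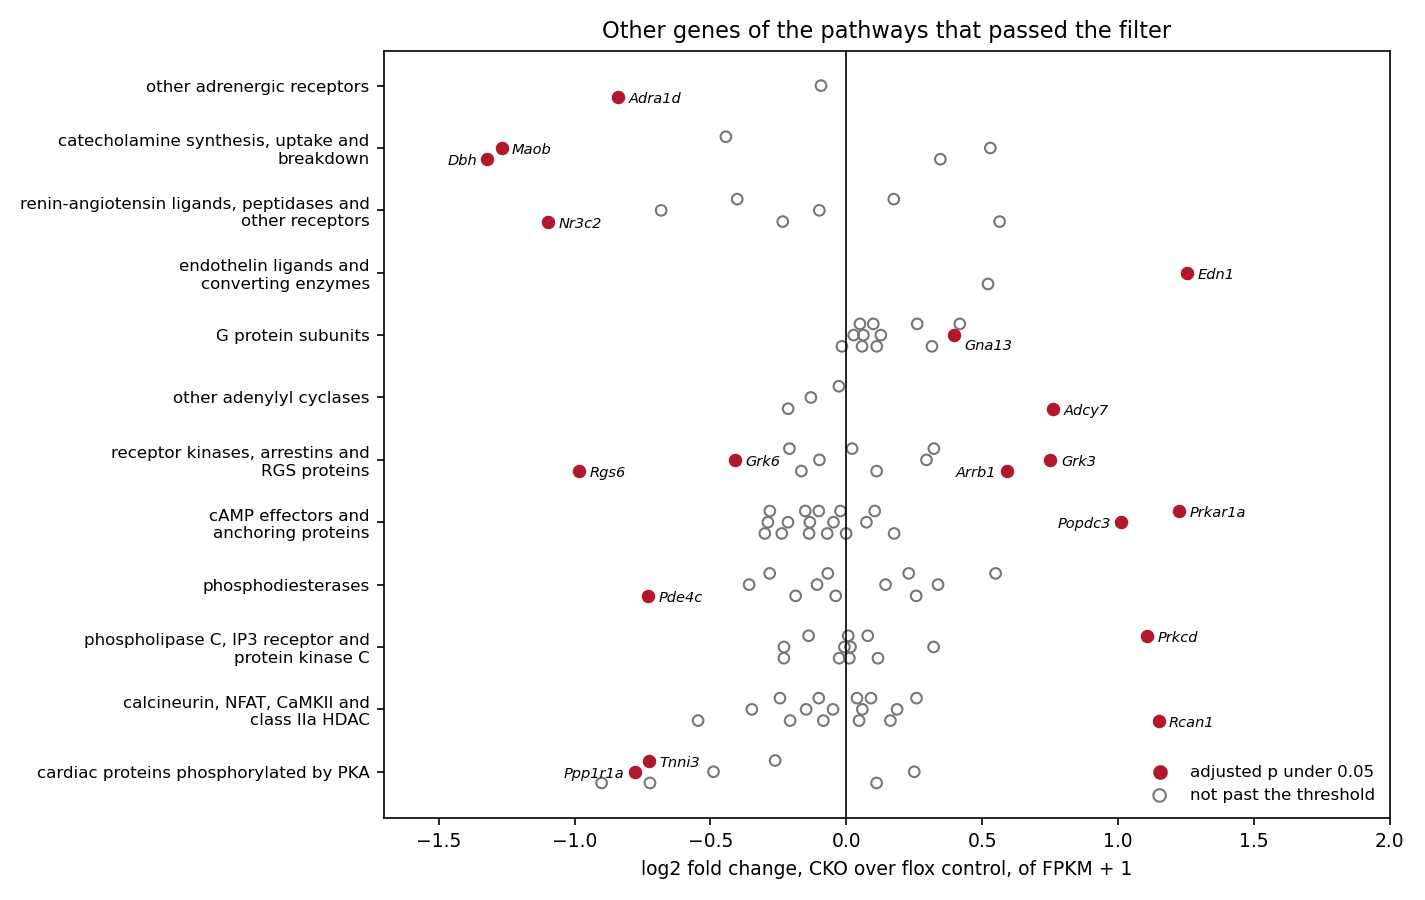
Log2 fold change of FPKM + 1, CKO over flox control (horizontal axis), of 109 other genes of the adrenergic, angiotensin and endothelin pathways, 1 point per gene, in 12 lists by role; filled and named points passed the threshold. The 18 called genes are 9 higher and 9 lower, and most points lie near 0.

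Some of the called genes share exonic bases with other genes, which leaves their values uncertain to that extent. The share was 4.62% for Ythdc1, 7.74% for Adra1d, 3.82% for Nr3c2, 1.64% for Edn1, 2.35% for Gna13, 0.768% for Rgs6, 5.76% for Popdc3 and 4.17% for Tnni3. Among the members it was 8.92% for Adcy6 and 1.66% for Ednra beside the 5.58% of Ace.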

How the data were processed

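Poly-A selected RNA of 6 mouse hearts was sequenced (3 CKO, 3 flox control, grouped by title), in paired reads per the labels' protocols, which describe no strand marking. The authors deposited FPKM values, with a column for each library. The submitters' processing notes name featureCounts 1.5.0-p3, HISAT2 2.0.5, GRCm38.p6, DESeq2 1.20.0 and CASAVA, without their roles. FPKM times the deposited gene length was a whole multiple of 1 step per library in 100% of values (tolerance 0.001), which gave the reads.

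The test was limma 3.58.1 (R 4.3.3) on log2(FPKM + 1), over genes averaging 1 FPKM or more, with a variance trend, Benjamini-Hochberg adjusted p under 0.05, two-sided. The +1 understates changes of low genes. Ratios without log2 are of mean FPKM. Tables and figures used Python 3.11.15. The members and lists were chosen with earlier results of these data known. Genes named are Ythdc1, the members, up to 3 called genes per list (or the 1 with the smallest adjusted p), and the 2 nearest genes of each called member. Th, Agt, Ren1, Prkaca, Arrb1, Xist and the single marker genes were named outside this rule, after their values were seen. Overlaps come from GENCODE release M21. On simulated data for CKO against flox control (5 draws, 200 changed genes, a mean of 12165 genes tested), 94.9% of 2-fold and 99.4% of 4-fold changes were recovered and 9.32% of calls were false. The simulation gave every gene the same spread beyond counting error, the median over the genes tested. Its shares need not hold for genes that spread widely, such as Adrb1 in flox controls (coefficient of variation 38.8%) and Ace in CKO hearts (47.6%). Alternatives covered pseudocount, filter, scaling, variance model, voom on the recovered reads, a block for the replicate number and each library left out.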

Additional observations from a re-analysis of the deposited data

How the results depend on the processing

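All fold changes of Ace, Adra1b, Agtr1a, Ednra and Ednrb kept their direction under every alternative run. The genes called numbered 798 with no filter and 715 with the replicate number as a block, against 1358, and 315 to 1490 when 1 library was left out. The members called numbered 0 to 2 when 1 library was left out, and 2 under each other setting of the fit on FPKM, though with no filter these were Adra1a and Adra1b, not Ace. Other pathway genes called numbered 10 with no filter, 11 with the replicate block, and 5 to 20 when 1 library was left out. Ythdc1 fell by 0.54 with the replicate block (limma adjusted p = 0.0542) and by 0.50 after scaling every library to the same FPKM sum (0.0903), neither past the threshold, and its log2 fold change was -0.60 to -0.50 when 1 library was left out. The Ace call held with the replicate block (0.0478), and adjusted p lay between 0.00244 and 0.113 over all alternatives. Same-numbered libraries had correlated deviations of 0.14, 0.06 and -0.01. These values gave no sign that the numbers pair the samples, but cannot show that they do not. Leaving out 1 library turned the direction of some genes that had not passed: the log2 fold change of Adrb1 was -0.38 to 0.14 (positive without flox control 3), that of Adcy5 -0.091 to 0.11 (-0.091 without CKO 3, -0.015 without flox control 1) and that of Adcy6 -0.19 to 0.067 (positive without flox control 1). The difference in the log2 ratio of Adcy5 over Adcy6 was -0.086 to 0.30 (-0.041 without CKO 3, -0.086 without flox control 1), and that of Ednra over Ednrb -1.13 to -0.73. The cause of these changes was not tested, beyond the fewer libraries or more genes in the fit. The ratio of Adra1a over Adra1b was not computed without a pseudocount, since 2 CKO libraries list Adra1a at 0; with 0.1 added it was lower by 0.67 on the log2 scale in CKO hearts. The count-model tests that had been listed were not run, since the deposited unit is FPKM. Voom on recovered reads, chosen after the data were seen, called 1428 of the genes of the main test, Ace and Adra1b among them. Over the 19498 genes with at least 10 reads, voom called 1554, among them Ace, Adra1b and Adra1a (limma adjusted p = 0.0135 for Adra1a). For Adra1a this fit too compares control values with libraries at or near 0.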
